A study of Mus musculus with 2 samples.

Results

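The 10 genes described here encode parts of the cytotoxic granule or proteins linked to it. This granule is the secretory lysosome with which killer lymphocytes destroy target cells. The genes are Prf1, Gzma, Gzmb, Gzmk, Gzmm, Nkg7, Ctsw, Cst7, Srgn and Serpinb9. They were chosen by symbol, as a list of granule-associated genes with no measured value in the rule. All 10 were found among the 23167 symbols of the files. RNA came from naive CD4 and naive CD8 T cells that had been purified by flow cytometry from spleen and lymph nodes of Foxp3-GFP mice on a C57/BL6 background, animals whose regulatory T cells carry a green reporter. Both sorts kept cells with high CD62L, low CD44, no CD25 and no Foxp3 reporter, so the cells were untreated and resting by surface phenotype, and the ages of the mice and any pooling of animals are not stated in the labels. Ribosomal RNA was removed before sequencing, and each cell type was sequenced as 1 library, so the differences carry no replicate check and no p-value. The study as a whole concerns 5-hydroxymethylcytosine in T cell development, and the RNA comparison asked how the transcriptomes of the CD4 and CD8 lineages differ before activation.

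In a killer cell, perforin opens the target membrane and granzymes, serine proteases stored in an inactive state, enter and cleave proteins that lead to cell death. The proteoglycan serglycin holds this cargo in the granule, cathepsin C trims granzymes to their active form, cystatin F restrains such cathepsins, and the serpin encoded by Serpinb9 protects the killer from its own granzyme B. Textbook accounts place full arming of this system after activation, with naive CD8 cells holding few granules.

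Levels are RPKM, reads per kilobase of gene and per 1000000 reads, as deposited. Behind them stood library totals of 24741945 reads for CD4 and 23853921 reads for CD8, and whole read numbers could be recovered for 12733 of the 12735 genes above 0 in both libraries. Differences are given as log2((CD8 RPKM + 1)/(CD4 RPKM + 1)), and a gene counts as at least 2-fold higher when this is 1 or more in size, among the 10228 genes at 1 RPKM or more in at least 1 library. The fold of a gene is the plain RPKM ratio, without the added 1, and the range after it is a 95% exact (Clopper-Pearson) interval computed from its reads in the 2 libraries. Such ranges cover counting error only. All 10 granule genes passed the filter on low values, of which Gzma, Gzmb and Gzmk did so only through the CD8 library, where they were at 4.51, 1.19 and 1.12 RPKM. Genes that pass in this way had to stand toward CD8, so counts and medians over the granule genes are descriptions.

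Granule genes stood toward CD8, but not as a block. Nkg7, Ctsw, Cst7, Gzma and Gzmk, 5 of the 10, were at least 2-fold higher in CD8, against 3.07% of all genes compared. None of the 10 was at least 2-fold higher in CD4, where the background was 2.41%. Prf1 and Gzmb were higher in CD8 below the size rule, and Srgn, Gzmm and Serpinb9 were near equal. The median log2 difference of the 10 was 1.03, and that of all genes compared was -0.08. Both the count and the median rest in part on Gzmk, which had 0 reads in CD4. With Gzmk set to the level of 3 reads in CD4 its log2 difference was 0.88, the count was 4 and the median was 0.92. Gzmb, at 0.97, lay just under the rule, and counting genes whose interval lay wholly above 2-fold without the added 1 gave 6 of 10, with Gzmb included, against 2.85% of all genes. By that count 0 of 10 were higher in CD4, against 2.44% of all genes.

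**Figure D1:**
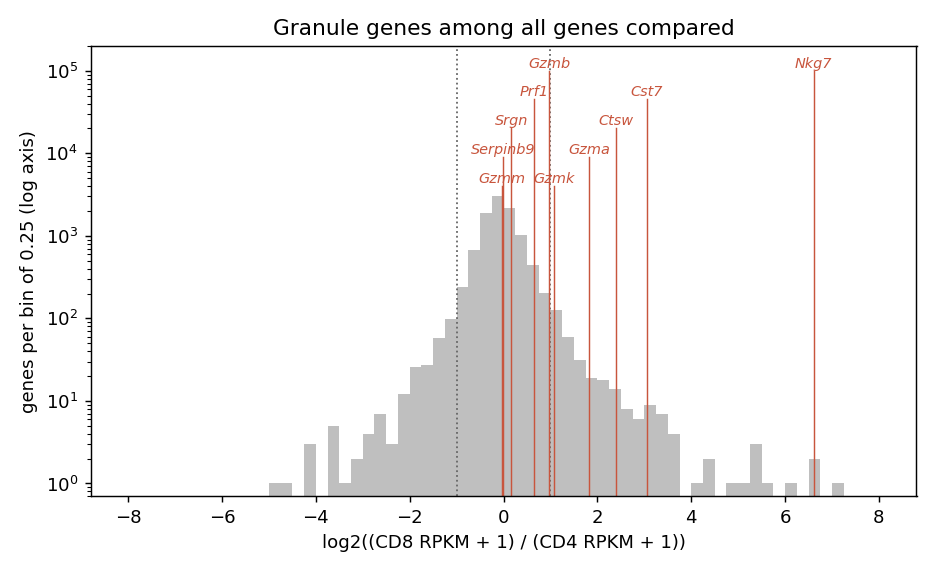
Distribution of log2((CD8 RPKM + 1)/(CD4 RPKM + 1)) over the 10228 genes compared (grey bars, number of genes per bin on a log axis), with the 10 granule genes marked in red and the 2-fold limits dotted. Nkg7 lies at 6.61 and Cst7 at 3.05, while Gzmm, Serpinb9 and Srgn lie within the main peak.

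The sequences ahead of the transcription starts are shown for the genes past the size rule, since these stood toward CD8 and since Runx and T-box proteins are known regulators of cytotoxic genes. RefSeq promoter windows on GRCm38.p6, a later build than the mm9 named for the reads, were available for 9 of the 10 genes (11 windows), and Ctsw was not matched. Each line gives the 250 bases before the annotated start, 5′ to 3′ on the gene's strand, with capitals marking the Runx core TGTGGT or the T-box core GGTGTG on either strand (ACCACA and CACACC when reversed).
Nkg7, chr7:43436888-43437137, plus strand: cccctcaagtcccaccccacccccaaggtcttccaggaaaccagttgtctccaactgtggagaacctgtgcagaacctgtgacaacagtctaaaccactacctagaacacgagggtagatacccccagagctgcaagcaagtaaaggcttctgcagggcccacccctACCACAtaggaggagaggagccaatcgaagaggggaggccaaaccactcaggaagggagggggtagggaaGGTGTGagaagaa
Cst7, chr2:150570165-150570414, plus strand: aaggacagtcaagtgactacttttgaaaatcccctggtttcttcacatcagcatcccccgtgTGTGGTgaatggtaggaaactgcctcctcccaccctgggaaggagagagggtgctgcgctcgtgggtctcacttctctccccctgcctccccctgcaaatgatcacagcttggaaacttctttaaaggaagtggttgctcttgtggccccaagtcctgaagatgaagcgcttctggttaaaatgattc
Gzma, chr13:113100982-113101231, minus strand: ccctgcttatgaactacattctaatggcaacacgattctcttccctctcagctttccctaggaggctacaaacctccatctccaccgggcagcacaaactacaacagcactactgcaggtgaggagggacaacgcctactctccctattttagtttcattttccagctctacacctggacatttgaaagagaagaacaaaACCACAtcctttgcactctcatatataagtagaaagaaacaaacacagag
Gzmk, chr13:113180966-113181215, minus strand: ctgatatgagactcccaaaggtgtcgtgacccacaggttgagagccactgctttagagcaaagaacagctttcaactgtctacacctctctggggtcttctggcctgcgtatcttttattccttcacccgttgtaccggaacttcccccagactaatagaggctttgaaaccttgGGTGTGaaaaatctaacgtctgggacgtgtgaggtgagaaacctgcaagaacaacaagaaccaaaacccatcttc
The Nkg7 window held 1 core of each kind, with the T-box core starting 13 bases before the start site and the Runx core 83 bases before it. Cst7 and Gzma each held 1 Runx core, at 188 and 50 bases before the start, and Gzmk held 1 T-box core, at 75 bases. A Runx core was in 7 of the 11 windows of the granule genes and in 14% of all 32851 windows in the table, and a T-box core in 4 of the 11 and in 16.3% of all. The windows of Prf1 and Gzmb, and 1 of the 2 windows of each of Gzmm and Srgn, also held a Runx core. Among these genes, Gzmm and Srgn were near equal between the libraries. The remaining T-box cores were in the Serpinb9 window and the other Gzmm window, and both genes were near equal between the libraries. The 2 cores share letters and can overlap. A match describes letters, and binding was not tested.

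Nkg7, which encodes a membrane protein of the granule needed for its release, had the largest difference of the 10. It was at 267 RPKM in CD8 (5160 reads) and 1.75 RPKM in CD4 (35 reads), a 153-fold difference (110 to 220), and stood at rank 2 of the 10228 genes by difference toward CD8. In the CD8 library it was the 193rd highest of the 13482 genes above 0, and in the CD4 library it was at rank 9361 of 13605. Its CD4 level was 0.654% of its CD8 level. The same share was 0.482% for Cd8a and 2.72% for Cd8b1, the coreceptor chains by which the sorts differ, and the Nkg7 share lay between these values.

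The granule-associated protease gene and the protease inhibitor gene followed. Ctsw, which encodes cathepsin W, a papain-type protease found mainly in cytotoxic lymphocytes, was at 332 RPKM in CD8 and 62.4 RPKM in CD4. The difference was 5.32-fold (5.07 to 5.59), on 9689 and 1888 reads. It was the highest of the granule genes in CD8 and among the top 1.17% of detected genes there, and it was also in the top 7.85% in CD4. Cst7, the cystatin F gene, was at 53.1 RPKM in CD8 and 5.52 RPKM in CD4, a 9.62-fold difference (8.05 to 11.6). Cst7 moved from the 56.6% mark of the ranked CD4 genes to the top 9.46% of the CD8 genes. In CD4, Ctsw kept 18.8% of its CD8 level and Cst7 kept 10.4%, shares above those of both coreceptor chains. What these shares and that of Nkg7 reflect was not tested.

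**Figure D2:**
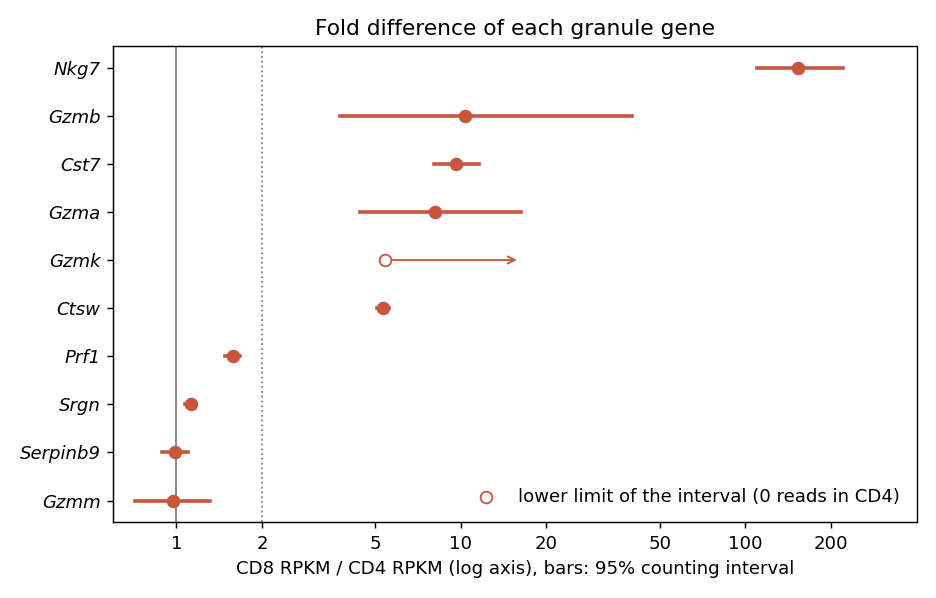
Ratio of CD8 to CD4 RPKM for each granule gene on a log axis, with bars for the 95% counting interval, a solid line at 1 and a dotted line at 2. The open point with an arrow is the lower limit of the interval of Gzmk, 5.40, since this gene had no reads in CD4. The intervals of Serpinb9 and Gzmm include 1.

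The granzyme genes were low in both libraries. Gzma, a granzyme that cleaves after basic residues, was the highest of the 4 in CD8 at 4.51 RPKM (94 reads) and was at 0.556 RPKM in CD4 (12 reads), an 8.12-fold difference (4.44 to 16.3). Gzmb, the granzyme that cleaves after aspartate and activates caspases, was at 1.19 RPKM in CD8 on 40 reads and 0.115 RPKM in CD4 on 4 reads. Its 10.4-fold difference therefore had a wide interval, 3.75 to 39.9. Gzmk, the close relative of Gzma on the same chromosome, had 21 reads in CD8 (1.12 RPKM) and 0 reads in CD4. Its counting interval started at 5.40-fold higher in CD8 and had no upper end, and against the 0.154 RPKM that 3 reads would give in CD4 the ratio was 7.26. In the CD8 library the counting intervals of the Gzmb and Gzmk levels overlapped (0.849 to 1.62 and 0.692 to 1.71 RPKM).

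Gzmm, a granzyme that cleaves after methionine and leucine, departed from the other 3. It was at 2.97 RPKM in CD4 (94 reads) and 2.88 RPKM in CD8 (88 reads), a ratio of CD8 to CD4 of 0.971 with an interval of 0.718 to 1.31, so no difference was detectable at this depth. Gzmm made up 81.6% of the summed granzyme RPKM in CD4 and 29.7% in CD8, where Gzma made up 46.5%. The sum over the 4 genes was 3.64 RPKM in CD4 and 9.70 RPKM in CD8. The 6 remaining mouse granzyme genes of the Gzmb cluster, Gzmc to Gzmg and Gzmn, were all under 1 RPKM. Of these, 5 were listed at 0 in both libraries and Gzmc had 13 reads in CD4 and 3 in CD8. Genes of this cluster are similar in sequence, so reads assigned to Gzmb and Gzmc are uncertain between copies.

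Prf1, the perforin gene, was far above the granzymes in both cell types. It was at 54.6 RPKM in CD8 and 34.6 RPKM in CD4, a 1.58-fold difference (1.49 to 1.68) on 2673 and 1755 reads, with a log2 difference of 0.64. Perforin RPKM was 9.51 times the summed granzyme RPKM in CD4 and 5.63 times in CD8. Prf1 and Cst7 had overlapping counting intervals in CD8 (52.6 to 56.7 and 50.2 to 56.1 RPKM), whereas in CD4 Cst7 was at 5.52 RPKM and Prf1 at 34.6 RPKM.

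**Figure D3:**
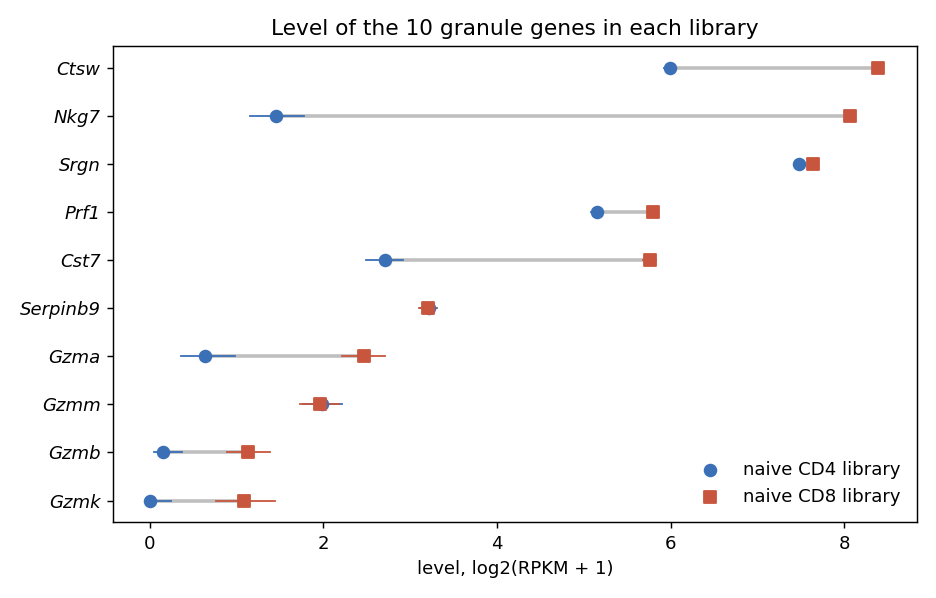
Level of each granule gene as log2(RPKM + 1) in the naive CD4 library (blue circles) and the naive CD8 library (red squares), with thin bars for the 95% counting interval of the level and grey lines joining the 2 libraries. Srgn, Prf1, Serpinb9 and Gzmm sit close together across libraries, while Nkg7 runs from 1.75 RPKM in CD4 to 267 RPKM in CD8.

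The storage and self-protection genes differed little. Srgn, the serglycin gene, was at 199 RPKM in CD8 and 177 RPKM in CD4 (1.12-fold, 1.08 to 1.17), a log2 difference of 0.17 that was -0.04 after rescaling each library to a sum of 1000000. It was the highest granule gene in CD4 and in the top 2.07% of detected genes there and the top 1.94% in CD8. Serpinb9, the granzyme B inhibitor gene, was at 8.29 RPKM in the CD4 library and 8.20 RPKM in CD8 (ratio of CD8 to CD4 0.989, 0.888 to 1.10), with 695 and 663 reads. Its level was above that of Gzmb in both libraries. Serglycin is also made by many blood cells that hold no cytotoxic granules.

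Because a few genes carried most of the level, the makeup of the summed granule RPKM differed between the libraries. The 10 genes summed to 293 RPKM in CD4 and 924 RPKM in CD8, 3.15 times as much, and without Nkg7 the ratio was 2.25. In CD4, Srgn made up 60.3% of the sum and Nkg7 0.597%. In CD8, Ctsw made up 36.0%, Nkg7 28.9% and Srgn 21.5%. The lytic molecules were a small part of both: Prf1 was 11.8% of the sum in CD4 and 5.91% in CD8, and the 4 granzymes together were 1.24% and 1.05%.

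**Figure D4:**
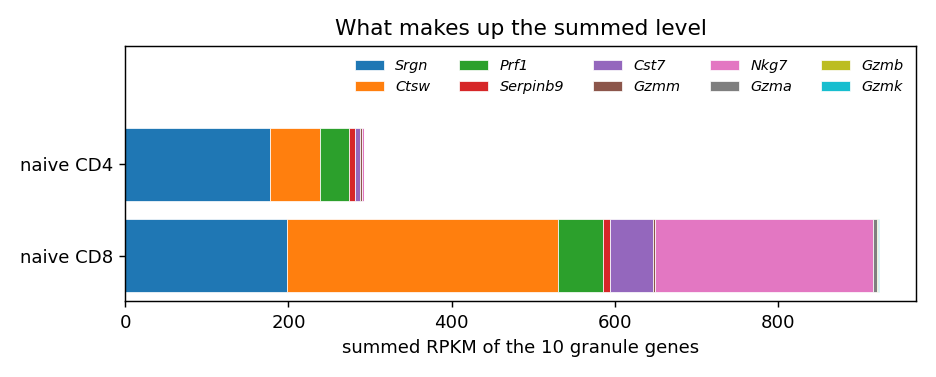
Stacked bars of the RPKM of the 10 granule genes in each library, with the horizontal axis starting at 0. The CD8 bar reaches 924 RPKM and the CD4 bar 293 RPKM, and the Ctsw and Nkg7 segments account for most of the added length.

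Of the 12 listed genes of granzyme processing and the granule compartment, 10 were compared and none was at least 2-fold apart in either direction (3.07% of all genes were toward CD8 and 2.41% toward CD4), with a median log2 difference of -0.09 beside -0.08 over all genes. A count of 0 among 10 genes is near these background shares. Calr, the calreticulin gene, was the highest at 247 RPKM in the CD4 library and 238 RPKM in CD8. Ctsc, the cathepsin C gene whose product activates granzymes, was at 49.5 RPKM in CD8 and 30.7 RPKM in CD4 (1.61-fold, 1.52 to 1.71), under the size rule. Cd63, which many cells use, was listed at 0 in both libraries, as was Vamp7 of the release list, so such a listed 0 is not read as absence.

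In the release machinery, 15 of 16 genes were compared and their median was -0.07. The size rule took 1 gene toward CD8 and 1 toward CD4, against background shares of 3.07% and 2.41%. Both were synaptotagmin-like genes, whose proteins bind Rab27 on secretory vesicles. Sytl3 was at 16.4 RPKM in CD8 and 0.580 RPKM in CD4 (28.2-fold, 20.2 to 40.8), and Sytl2 was at 6.39 RPKM in the CD4 library and 1.82 RPKM in CD8 (3.51-fold higher in CD4, 3.08 to 4). The highest gene of the list was Unc13d, the vesicle priming factor Munc13-4, at 68.1 RPKM in the CD4 library and 55.8 RPKM in CD8, and Rab27a was at 29.6 and 24.5 RPKM.

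Of 13 other serpins and cystatins 5 were compared and none passed the size rule (3.07% of all genes toward CD8, 2.41% toward CD4). Cst3, the cystatin C gene and the highest of them, was at 43.8 RPKM in CD8 and 22.2 RPKM in CD4 (1.97-fold, 1.75 to 2.23). Serpina3g lay just under the rule at a log2 difference of 0.98, with 25 reads in CD8 and 1 read in CD4. Its plain fold was 25.9, with a wide interval of 4.24 to 1065. Of the 5 genes compared, 1 lay toward CD4. Of the close copies of Serpinb9, Serpinb9b had 2 reads in CD8, and the other 5 were listed at 0 in both libraries, which is not read as absence. Of 4 effector genes outside the granule that were compared, none passed the size rule toward CD8 and 1 did toward CD4, against 3.07% and 2.41% of all genes. Ifng, the interferon-gamma gene and the fifth of the list, was under 1 RPKM in both libraries and was not compared, with 14 reads in CD8 and 0 in CD4. The gene toward CD4 was Fasl, the death ligand used in killing without granules, with 11.6 RPKM in CD4 and 1.17 RPKM in CD8 (9.89-fold higher in CD4, 7.47 to 13.3). Tnf, the highest of them, was at 14.5 RPKM in the CD4 library and 7.90 RPKM in CD8.

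Of 14 listed regulators of the cytotoxic programme 13 were matched by symbol, Zfp683 being the exception, and 12 were compared. The size rule took 4 toward CD8 and 1 toward CD4, against 3.07% and 2.41% of all genes, and their median was 0.09. Eomes, the T-box factor linked to perforin and Il2rb expression, was at 12.6 RPKM in CD8 and 1.83 RPKM in CD4, and Tbx21, the T-bet gene, at 2.63 and 0.222 RPKM. Bhlhe40 was at 1.48 RPKM in CD8 and 0.169 RPKM in CD4, and Id2 at 66.2 and 31.8 RPKM. Zbtb7b, which encodes ThPOK and represses CD8 lineage genes, was at 51.8 RPKM in the CD4 library and 1.25 RPKM in CD8. Tcf7, the highest of the list, was at 354 RPKM in the CD4 library and 284 RPKM in CD8.

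**Figure D5:**
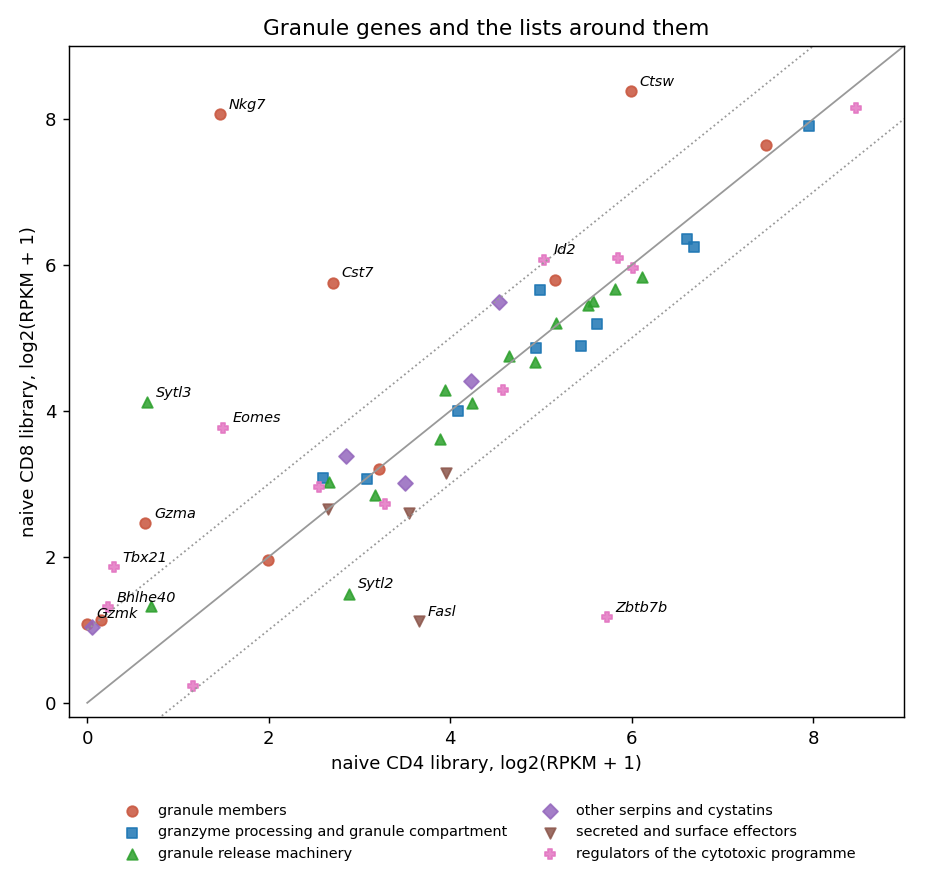
Level in the CD8 library against level in the CD4 library, both as log2(RPKM + 1), for the granule genes and the processing, release, inhibitor, effector and regulator genes at 1 RPKM or more in at least 1 library. The solid line marks equal levels and dotted lines mark 2-fold, and genes past the size rule are named. Most processing and release genes lie between the dotted lines, with Sytl3 and Sytl2 outside on opposite sides.

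The labelled cell types carried their defining markers. The 5 T cell markers summed to 1733 RPKM in CD4 and 1829 RPKM in CD8, the 3 CD4 markers to 389 and 11.1 RPKM, and the 2 CD8 markers to 23.9 and 1306 RPKM. None of the 5 naive markers passed the size rule, against 3.07% of all genes toward CD8 and 2.41% toward CD4, so a count of 0 is near these shares. All 5 lay toward CD4, with a median log2 difference of -0.32 beside -0.08 over all genes. Markers of other cells that hold cytotoxic granules or serglycin are given with those listed at 0 named, since a listed 0 is not read as low expression. The 7 NK cell markers summed to 0.935 RPKM in CD4 and 2.73 RPKM in CD8. Of these, Klra8 and Klra4 were listed at 0 in both, Klre1 at 0 in CD4 and Ncr1 at 0 in CD8. Klrb1c was the only 1 of the 7 that was compared, and it passed the size rule toward CD8, against 3.07% of all genes. It was at 1.36 RPKM in CD8 and 0.031 RPKM in CD4. Having passed the filter only through CD8, it had to stand toward CD8. The 8 mast cell and basophil markers summed to 0.206 and 0.764 RPKM, with Cpa3, Mcpt8, Mcpt4, Cma1 and Gata2 listed at 0 in both libraries. Fcer1a and Ms4a2 were listed at 0 in CD8. Kit alone made up the CD8 sum, with 94 reads there and 11 reads in CD4. The 5 markers of NKT and gamma delta T cells summed to 0.246 and 0.329 RPKM. Of these, Zbtb16 and Il23r were listed at 0 in both libraries and Sox13 at 0 in CD4. Siglech, Klk1 and Cox6a2, 3 of the 4 plasmacytoid dendritic cell markers, were listed at 0 in both. Pacsin1, the other marker of that list, was at 13.5 RPKM in the CD4 library and 11.0 RPKM in CD8. The part of such cells in the difference of the granule genes was not tested.

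The 9 myeloid markers summed to 6.06 RPKM in CD4 and 7.62 RPKM in CD8. Of the 4 compared, S100a8 was the 1 past the size rule, toward CD8, against 3.07% of all genes. S100a8 was at 2.48 RPKM in CD8 (23 reads) and 0.520 RPKM in CD4 (5 reads), so it passed the filter only through CD8. Cd14 was listed at 0 in both, Mpo at 0 in CD4 and Fcgr1 at 0 in CD8. The 6 B cell markers used summed to 2.9 and 30.3 RPKM, of which Cd79b made up 28.8 RPKM in CD8 while Ms4a1 was at 0.348 RPKM there. Blnk and Ebf1 were listed at 0 in CD4. Of 5 markers of memory or activated T cells, Ly6c2, Il2rb, Cxcr3 and Ccl5 passed the size rule toward CD8, against 3.07% of all genes. Cd44, the gene of the gated protein, passed it toward CD4 (2.41% of all genes), at 6.33 RPKM in the CD4 library and 2.60 RPKM in CD8. The 5 markers summed to 17.2 RPKM in CD4 and 242 RPKM in CD8, of which Ly6c2 alone made up 164 RPKM in CD8. Their part in the difference of the granule genes was not tested. Of the 4 regulatory T cell markers 3 were compared, and Il2ra was under 1 RPKM in both libraries. Ikzf2 and Ctla4 passed the size rule toward CD8 and Foxp3 toward CD4, against 3.07% and 2.41% of all genes. In bulk RNA, a few cells with many transcripts and many cells with few cannot be told apart.

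By RefSeq order, 9 genes within 15000 bases of a granule gene were compared, of which 1 passed the size rule toward CD8 and 0 toward CD4, against 3.07% and 2.41% of all genes. That gene, chosen after its value was seen, was Cldnd2, the next gene after Nkg7, at 3.57 RPKM in CD8 (56 reads) with 0 reads in CD4, and its counting interval started at 15.2-fold higher in CD8. Etfb, the gene beyond it, was at 25.7 RPKM in CD8 and 21.7 RPKM in CD4. Fibp, whose end overlaps that of Ctsw, was at 26.3 RPKM in CD8 and 30.2 RPKM in CD4. Cdc20b overlaps Gzma and was not analysed here.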

How the data were processed

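The authors deposited RPKM, 1 value per gene symbol and library. The submitters' processing notes name TopHat, HTSeq and the build mm9. Versions, annotation and strand setting: not given in the sources used here. Each library had 26882 rows for 23167 symbols, repeats being identical and kept once. Library totals and whole reads were recovered from the RPKM: low genes gave the ratio of the totals, and GENCODE M21 transcript lengths gave their scale. For all 10 granule genes the smallest gene length giving whole reads was close to an annotated one and was taken. For other genes the multiple nearest an annotated length was taken, so some reads may be too high and intervals too narrow. A test across samples needs replicates and was not possible. Genes were compared at 1 RPKM or more in at least 1 library after adding a pseudocount of 1 RPKM, so differences of low genes are understated. The calculations were tested on simulated data. 1 listed marker gene is not reported here. The granule genes and all lists were chosen with earlier results of these data known. The text names all granule genes and, of each pathway list, the highest gene and those past the size rule. Other list genes, such as Ctsc, were named after their values were seen. Other pseudocounts, filters and scalings were tried. Python 3.11.15, numpy 2.4.6, scipy 1.17.1 and pandas 2.3.3 were used.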

Additional observations from a re-analysis of the deposited data

How the results depend on the processing

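The number of granule genes at least 2-fold higher in CD8 was 5 and lay between 3 and 6 under the alternatives run, and none was at least 2-fold higher in CD4 under any of them. A pseudocount of 5 RPKM gave 3 granule genes (median 0.44), with 125 of the 10228 genes compared higher in CD8 and 73 in CD4. A filter at 5 RPKM, which left 6 granule genes, gave 3 (median 1.52), with 208 and 152 of the 8163 genes it left. A pseudocount of 0.1 RPKM gave 6 (median 2.50), with 462 of 10228 genes higher in CD8 and 428 in CD4. Rescaling each library to a sum of 1000000 gave 6 (median 1.51) and moved the median gene by -0.21. It put 324 of 10957 genes compared higher in CD8 and 600 in CD4. Of the genes past the rule 35.1% were then higher in CD8, against 56% (314 and 247 genes) as deposited. Srgn moved to -0.04, and Gzmm and Serpinb9 moved from -0.03 and -0.01 to -0.22 each. Nkg7, Ctsw and Cst7 were past the size rule under every pseudocount, filter and scaling tried. Gzma fell to 0.78 with a pseudocount of 5 RPKM. Setting Gzmk to 3 reads in CD4 and counting by intervals alone were chosen after seeing the data, and the first gave a median of 0.92. Depth limits Gzmb, Gzmk and Gzma most, with 4, 0 and 12 reads in CD4. No paired analysis was possible because each cell type had 1 library.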
